A study of Mus musculus with 12 samples.

Results

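The mRNA of 10 enzymes that build purine and pyrimidine nucleotides from small precursors was examined in mouse C2C12 myoblasts given different sugars. They are Ppat, Gart, Pfas, Paics, Adsl and Atic, which assemble the purine ring up to inosine monophosphate (IMP), Impdh2 and Gmps, which turn IMP into guanosine monophosphate (GMP), and Cad and Umps of pyrimidine synthesis. The genes were chosen by name, and each was read from the row of the authors' deposited table that holds its symbol and has the highest summed level. All 10 were found, in 10 of the table's 26271 loci. For 8 of them the locus holds no other gene symbol. Impdh2 shares its locus with Qars and Qrich1, and Cad shares its locus with Atraid, so the values of these 2 loci are values of all the genes in them.

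Purine synthesis builds the ring stepwise on phosphoribosyl pyrophosphate (PRPP), an activated sugar phosphate made from ribose 5-phosphate, and draws on glutamine, glycine, aspartate and formyl groups carried by folate. Pyrimidine synthesis makes the ring first, from bicarbonate, glutamine and aspartate, and then joins it to PRPP. Both routes supply RNA and DNA synthesis in dividing cells such as myoblasts, and their genes are known targets of the transcription factor MYC.

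C2C12 is a line of mouse myoblasts. The cells were kept for 24 h in 1 of 3 media: high glucose with 25 mM of the sugar, low glucose with 5 mM, or a medium with 10 mM galactose. Every medium also held 1 mM sodium pyruvate, 10% fetal bovine serum and 1% penicillin/streptomycin, so pyruvate and serum components were present in all 3 groups. Each group had 4 libraries of polyA RNA, 12 in all, and the labels do not say whether these came from separate cultures. No genotype or allele is given beyond the cell line, which limits the results to 1 line. The comparisons ask how the supply and the kind of sugar alter the transcriptome.

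The table gives 1 pooled value per group for each locus, in FPKM (fragments scaled to transcript length and to the number mapped, a level per length), and the result of the authors' test for every pair of media. It holds no value per library, so no SD, n or overlap between libraries can be given, and the depth behind each value is unknown. Genes with an authors' q under 0.05 are termed called. The lowest q in the table is 0.000239 and is shared by 9204 of 44006 tests, so it does not rank the genes that have it. The defining myoblast genes were present: the 6 markers Myod1, Myf5, Pax7, Des, Cdh15 and Musk summed to 762 FPKM (high glucose), 501 (low glucose) and 402 (galactose) in the authors' deposited table. In the same table, the 6 markers of other cells (Pdgfra, Pecam1, Tek, Ptprc, Adipoq and Cdh1) summed to 1.95, 1.53 and 1.56 FPKM, nearly all of it Pdgfra, and none was listed at exactly 0. Of the myoblast markers, 5 of 6 were called lower in low glucose and 6 of 6 in galactose. Their part in the changes of the enzyme genes was not tested. In bulk RNA, a change in the share of cells that express a gene and a change in RNA per cell cannot be told apart.

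Most of the synthesis enzyme genes were called higher in low glucose and in galactose than in high glucose. From high to low glucose, 7 of the 10 were called higher, none lower and 3 not called, where 18.3% of all 14699 tested loci were called higher and 18.2% lower. From high glucose to galactose the same count held, 7 higher, none lower and 3 not called, against 26.5% of 14812 tested loci higher and 24.8% lower. Ppat, Gart, Paics, Adsl, Atic, Gmps and Umps were the called genes in each case, and Pfas and the loci of Impdh2 and Cad the ones not called. These 2 comparisons share the high glucose libraries and are not independent. From low glucose to galactose, 2 of the 10, Adsl and Atic, were called higher and none lower, against 17.4% of 14495 tested loci higher and 16.0% lower, a share near the background.

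The changes were small. The median log2 fold change of the 10 in the authors' deposited table was 0.25 from high to low glucose. It was 0.36 between high glucose and galactose, and 0.05 between low glucose and galactose. Over all tested loci the medians were 0.01, 0.01 and 0.01. Enzyme genes are well expressed, and among such loci higher calls are more frequent and lower calls less frequent than among all tested loci. Of tested loci that reached 10 FPKM in one of the groups compared, 25.3%, 35.4% and 20.1% were called higher and 14.4%, 20.9% and 14.6% lower in the 3 comparisons, and their medians were 0.06, 0.09 and 0.03. Over all loci the FPKM values sum to 548145, 582498 and 617537 for high glucose, low glucose and galactose. Scaling the groups to equal sums would lower every log2 change by 0.09, 0.17 and 0.08 and the median of all tested loci to -0.08, -0.17 and -0.07. Relative to that median, the enzymes stood 0.24, 0.36 and 0.04 higher on the log2 scale. Rescaling shifts both alike and so cannot alter these differences. Relative to the median of tested loci that reached 10 FPKM, they stood 0.18, 0.28 and 0.02 higher. With equal sums, the median of the 10 from low glucose to galactose would be -0.0313. Against high glucose, the Impdh2 locus would be below 0 in low glucose and galactose, and the Cad locus in galactose. Over the 3 comparisons, 9 gene values would change direction, none of them a called change. The others of these are from low glucose to galactose and include genes called from high glucose, such as Ppat and Gart.

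**Figure D1:**
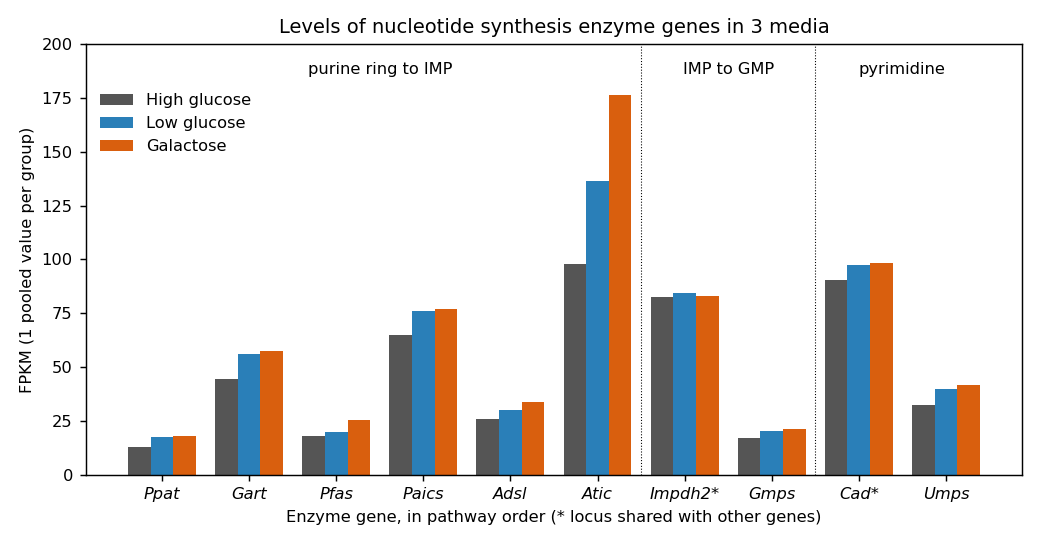
Bars give the authors' pooled FPKM (y axis, from 0) of the 10 enzyme genes (x axis, in pathway order) in high glucose, low glucose and galactose, 1 value per group and so with no error bar. Atic is the highest in each group, at 97.8, 136 and 176 FPKM, and Ppat the lowest, at 12.9, 17.3 and 17.9 FPKM.

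Levels per length differed more between the enzymes than between the media. In high glucose the order in the authors' deposited table ran from Atic at 97.8 FPKM through Cad, Impdh2, Paics, Gart, Umps, Adsl, Pfas and Gmps to Ppat at 12.9 FPKM, a 7.56-fold range. The range was 7.86-fold in low glucose and 9.84-fold in galactose. The order stayed as it was, except that Pfas and Gmps changed places in low glucose, at 20.1 and 20.4 FPKM per the authors' deposited table. With no spread between libraries, it cannot be said which neighbours in this order differ. The values of the Cad and Impdh2 loci include their partner genes, so their places near the top are those of the loci.

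Ppat encodes the amidotransferase that commits PRPP to purine synthesis. It is read from locus XLOC_017987 and lies on the minus strand of chromosome 5, from 76913249 to 76951578 (mm10, GENCODE M21), with 11 exons. The authors' deposited table lists Ppat at 12.9 FPKM for high glucose, 17.3 for low glucose and 17.9 for galactose, so that both low glucose and galactose were above high glucose and lay close to each other. The log2 fold changes from high glucose in that table were 0.42 (q = 0.00646) and 0.47 (q = 0.00161), rises of 34.0% and 38.5%. Between low glucose and galactose the log2 change was 0.05 (q = 0.807) in the authors' deposited table.

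Paics encodes the bifunctional enzyme of the carboxylation and the aspartate-adding step that follows ring closure. It lies head to head with Ppat, on the plus strand of chromosome 5 from 76951307 to 76967509, with 9 exons (locus XLOC_017328). Their first parts overlap by 272 bases in GENCODE M21, and the deposited rows of both genes give the same interval, from 76913249 to 76967560. Antisense genes overlap Ppat over 19391 bases (2310040G07Rik), Gart over 2676 bases (Gm15964) and Umps over 800 bases (Gm15829), introns included. Whether the authors assigned reads by strand is not stated in the sources used here, so reads within these overlaps cannot be told apart, and the values of Ppat, Paics, Gart and Umps are uncertain to that extent. The same limit holds for shorter overlaps in Adsl (Gm6612, a processed pseudogene, 395 bases), Pfas (Mir3062, 105 bases, and Gm25819, 84 bases) and Impdh2 (Ndufaf3, 48 bases). Gm6612 and Mir3062 lie on the same strand as the gene they overlap, so strand would not separate their reads. The authors' deposited table lists Paics at 65.0, 75.9 and 76.8 FPKM in high glucose, low glucose and galactose. Low glucose and galactose were again above high glucose and nearly equal. The log2 changes from high glucose were 0.23 (q = 0.0136) and 0.24 (q = 0.00646) and from low glucose to galactose 0.02 (q = 0.897) in the authors' deposited table. A separate row with the Paics symbol was too weakly expressed for the authors' test and was not used.

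Ppat and Paics were called in the same comparisons, as were Gart, Gmps and Umps. Promoter sequence is shown for Ppat and Paics because they start 276 bases apart. It is also shown for Atic, the enzyme with the largest change, and for Impdh2, whose window, like those of Paics and Atic, holds the E-box CACGTG that MYC and MAX bind. The windows run from 250 bases before the RefSeq start site to the 50th base of the gene (RefSeq, GRCm38.p6, which is the mm10 assembly), 5′ to 3′ on the gene's strand. They lie at chr5:76951529-76951828 (Ppat, minus strand), chr5:76951052-76951351 (Paics, plus strand), chr1:71556906-71557205 (Atic, plus strand) and chr9:108560186-108560485 (Impdh2, plus strand). Because Ppat and Paics overlap at their starts, the window of each runs into the other gene. The bases between these windows were not searched. Capitals mark matches, on either strand, to any of 6 motifs searched: CACGTG, the ATF4 element TGATGNAA, the NRF1 core GCATGCGC, the E2F sites TTTCCCGC and TTTGGCGC, and the CCAAT box.
Ppat: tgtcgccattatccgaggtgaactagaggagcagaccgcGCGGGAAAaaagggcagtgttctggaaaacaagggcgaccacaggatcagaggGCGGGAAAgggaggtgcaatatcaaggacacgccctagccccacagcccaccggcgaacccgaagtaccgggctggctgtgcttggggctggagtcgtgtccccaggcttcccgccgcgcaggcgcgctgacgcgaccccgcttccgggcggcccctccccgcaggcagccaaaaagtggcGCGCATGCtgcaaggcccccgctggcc
Paics: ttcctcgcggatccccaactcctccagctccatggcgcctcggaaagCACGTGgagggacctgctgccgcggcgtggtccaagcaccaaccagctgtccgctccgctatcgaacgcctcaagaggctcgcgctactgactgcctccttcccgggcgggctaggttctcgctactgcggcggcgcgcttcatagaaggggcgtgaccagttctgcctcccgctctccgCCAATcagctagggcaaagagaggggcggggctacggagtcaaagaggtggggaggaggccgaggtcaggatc
Atic: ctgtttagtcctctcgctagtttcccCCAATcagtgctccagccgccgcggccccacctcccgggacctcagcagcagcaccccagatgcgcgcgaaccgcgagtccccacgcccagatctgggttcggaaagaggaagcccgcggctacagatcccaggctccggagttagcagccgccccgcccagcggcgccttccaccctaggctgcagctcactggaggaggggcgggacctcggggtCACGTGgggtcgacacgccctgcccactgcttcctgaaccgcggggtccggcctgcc
Impdh2: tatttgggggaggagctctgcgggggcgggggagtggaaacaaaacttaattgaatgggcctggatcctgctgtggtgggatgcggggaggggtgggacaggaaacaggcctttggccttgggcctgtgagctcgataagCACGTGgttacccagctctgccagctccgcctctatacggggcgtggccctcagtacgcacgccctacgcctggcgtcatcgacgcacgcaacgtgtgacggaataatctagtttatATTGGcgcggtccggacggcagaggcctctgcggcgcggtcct

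Of the 10 genes, 9 had a window in the RefSeq table. CACGTG was found in 3 of the 9 (Atic, Paics and Impdh2), where 7.15% of all 32851 promoter windows of this length hold it. In Atic it lies from base -7 to base -2 before the start site, in Paics from -203 to -198 and in Impdh2 from -110 to -105. These positions count from the RefSeq start sites. The GENCODE spans given for Atic and Impdh2 begin further upstream. By those spans, most of the Atic match and all of the Impdh2 match lie inside the gene. CCAAT was found in 4 of the 9 (Atic, Paics, Impdh2 and Gart) and in 37.4% of all windows. Ppat held the E2F site TTTCCCGC at 2 places and the NRF1 core once, motifs present in 1.07% and 2.71% of all windows. TGATGNAA (3.97% of all windows) and TTTGGCGC (0.514%) matched none of the 9. No match overlapped another in these windows. Adsl, Gmps, Cad and Umps held no match. The 9 windows hold 53% (Umps) to 69.7% (Atic) G and C bases, where the median of all windows is 52.7%. The shares of all windows are not matched for this, so they cannot show whether a motif is more frequent in these genes. A match describes letters in the window only, and whether any motif had a part in the levels was not tested.

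**Figure D2:**
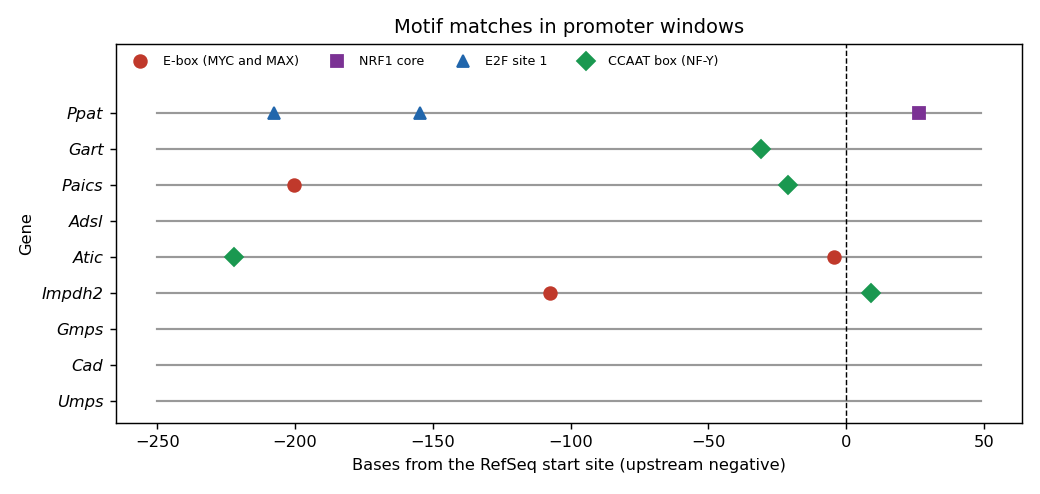
Each grey line is the 300-base promoter window of 1 enzyme gene, with position relative to the RefSeq start site on the x axis (bases, upstream negative) and motif matches on either strand as symbols. E-boxes stand in Paics, Atic and Impdh2, and Adsl, Gmps, Cad and Umps hold no match to the motifs searched.

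Gart encodes a trifunctional enzyme that adds glycine, brings in a formyl group and closes the first ring. It lies on the minus strand of chromosome 16 from 91621186 to 91646952 with 22 exons (locus XLOC_009174). The authors' deposited table lists it at 44.7, 56.1 and 57.5 FPKM in high glucose, low glucose and galactose. As for Ppat and Paics, the step was between high glucose and both of the other media. The log2 changes from high glucose were 0.33 and 0.36, both at the lowest q of 0.000239, and the change from low glucose to galactose was 0.04 (q = 0.730) in the authors' deposited table.

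Pfas encodes the synthase that adds a glutamine nitrogen between the reactions of GART. It lies on the minus strand of chromosome 11 from 68985697 to 69008460 with 28 exons (locus XLOC_003884). The authors' deposited table lists it at 18.0, 20.1 and 25.4 FPKM, lowest in high glucose and highest in galactose. Its log2 changes were 0.16 to low glucose (q = 0.481), 0.50 to galactose (q = 0.408) and 0.34 from low glucose to galactose (q = 0.367) in the authors' deposited table, none of them called. The change to galactose was larger than that of Ppat, which was called. They differ in the authors' test score, which weighs the change by its estimated error: 0.233 for Pfas and 2.03 for Ppat in the authors' deposited table. That error is not in the table, and a rise of this size can be neither called nor set aside.

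Adsl encodes adenylosuccinate lyase, which acts late in the route to IMP and again in making AMP. It lies on the plus strand of chromosome 15 from 80948490 to 80970946 with 13 exons (locus XLOC_007709). It stood at 26.0, 30.2 and 33.7 FPKM in high glucose, low glucose and galactose in the authors' deposited table, rising at each step. The log2 changes were 0.21 to low glucose (q = 0.00447), 0.38 to galactose (q = 0.000239) and 0.16 from low glucose to galactose (q = 0.0419) in the authors' deposited table. The last of these calls is close to the threshold: adjusted within that comparison alone, its q was 0.0513.

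Atic encodes the bifunctional enzyme of the last formyl transfer and the closure of the second ring, which yields IMP. It lies on the plus strand of chromosome 1 from 71557150 to 71579631 with 16 exons (locus XLOC_000180). Of the 10 genes it had the highest level and the largest change in all 3 comparisons. The authors' deposited table lists Atic at 97.8 FPKM for high glucose, 136 for low glucose and 176 for galactose. Its log2 changes were 0.48, 0.85 and 0.37, each at q = 0.000239, in the authors' deposited table, which are rises of 39.2%, 80.2% and 29.4%. Of all tested loci, 6.26%, 5.35% and 11.1% had a larger log2 change in these comparisons.

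**Figure D3:**
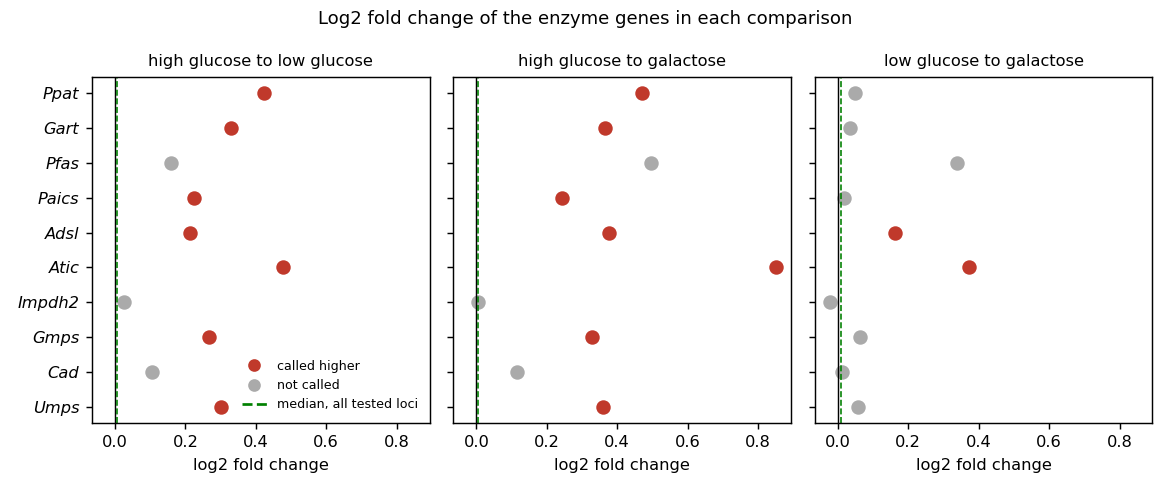
Each point is the log2 fold change (x axis, authors' deposited table) of 1 enzyme gene (y axis) in 1 comparison, red where called higher and grey where not called, with the median of all tested loci as a dashed line. In the first 2 panels 7 points are red, and in the last panel only Adsl and Atic are, at 0.16 and 0.37.

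At the branch from IMP to GMP, Gmps was called and the locus of Impdh2 was not. Gmps encodes GMP synthetase and lies on the plus strand of chromosome 3 from 63976106 to 64022579 with 16 exons (locus XLOC_014340). The authors' deposited table lists Gmps at 17.0, 20.4 and 21.3 FPKM, with log2 changes from high glucose of 0.27 and 0.33, both at q = 0.000239. From low glucose to galactose Gmps changed by 0.06 (q = 0.505) in the authors' deposited table. Impdh2 encodes the inosine monophosphate dehydrogenase form typical of proliferating cells, the rate-limiting step to GMP. The gene lies on the plus strand of chromosome 9 from 108560286 to 108565584 with 14 exons. Its locus, XLOC_024061, runs from 108507965 to 108565566 and takes in Qars, the glutaminyl-tRNA synthetase gene, and Qrich1. That locus was level in the 3 media, at 82.7, 84.3 and 83.0 FPKM, with log2 changes of 0.03 (q = 0.799), 0.00 (q = 0.966) and -0.02 (q = 0.837) in the authors' deposited table. Because 1 value covers 3 genes, Impdh2 itself cannot be compared between the media.

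Of the pyrimidine enzymes, Umps was called and the locus of Cad was not. UMPS, the bifunctional enzyme that joins orotate to PRPP and gives UMP, is encoded on the minus strand of chromosome 16 from 33954782 to 33967038 with 6 exons (locus XLOC_008987). The authors' deposited table lists Umps at 32.4, 40.0 and 41.6 FPKM. The log2 changes of Umps from high glucose were 0.30 and 0.36, both at q = 0.000239, and 0.06 (q = 0.520) from low glucose to galactose in the authors' deposited table. Cad encodes the trifunctional protein of the first pyrimidine steps. It lies on the plus strand of chromosome 5 from 31054780 to 31078479 with 44 exons, in locus XLOC_017185, which also holds Atraid. The authors' deposited table lists that locus at 90.5, 97.4 and 98.2 FPKM, with log2 changes of 0.11 (q = 0.420), 0.12 (q = 0.367) and 0.01 (q = 0.946). Its order of the media was that of Umps, but the change was smaller and was not called, and the share of Cad in it is not known.

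By role, 5 of the 6 genes of the route to IMP were called higher in low glucose and 5 of 6 in galactose, with median log2 changes of 0.28 and 0.42. Of all tested loci, 18.3% and 26.5% were called higher in these 2 comparisons, and 25.3% and 35.4% of those reaching 10 FPKM. Of the 2 genes from IMP to GMP, 1 was called in each comparison, as was 1 of the 2 pyrimidine genes. All genes that were not called in these comparisons were Pfas and the 2 combined loci. Among the 8 loci that hold 1 symbol, 7 were called higher in low glucose and 7 in galactose, with medians of 0.28 and 0.37.

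Other enzymes of the same routes were called higher or not at all from high glucose. Of 6 genes of other branch and final steps, 4 were called higher in low glucose and 4 in galactose, none was lower, and the medians were 0.22 and 0.33. The shares called higher among all tested loci were 18.3% and 26.5%, or 25.3% and 35.4% at 10 FPKM or more. These shares also apply to the counts of the lists that follow, and no list was tested against them. Dhodh encodes the mitochondrial enzyme between CAD and UMPS, whose electrons pass to the respiratory chain. It stood at 11.1, 13.3 and 14.4 FPKM, with log2 changes from high glucose of 0.26 (q = 0.00676) and 0.37 (q = 0.000239) in the authors' deposited table. Impdh1, the other dehydrogenase gene toward GMP and read from a locus of its own, stood at 61.1, 69.2 and 82.1 FPKM per the authors' deposited table. The log2 changes of Impdh1 were 0.18 (q = 0.0207), 0.43 and 0.25 (both q = 0.000239) in that table, so this isoform was called in all 3 comparisons. Adss, of the first step from IMP to AMP, stood at 58.4, 70.3 and 82.4 FPKM and was also called in each, by 0.27, 0.50 and 0.23 in the authors' deposited table. Ctps, which makes CTP from UTP, stood at 37.0, 45.2 and 45.3 FPKM per the authors' deposited table and was called from high glucose only, by 0.29 in each medium. Its less expressed relative Ctps2 was not called, at 5.15, 4.32 and 4.35 FPKM per the authors' deposited table, nor was Adssl1.

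The genes of PRPP supply were mixed. Of 5 loci, 2 were called higher and none lower in low glucose, and 2 higher and 1 lower in galactose. Prps1, a PRPP synthetase gene, stood at 15.6, 20.1 and 19.5 FPKM, and its log2 changes from high glucose were 0.37 and 0.32 in the authors' deposited table, both at q = 0.000239. Prps2, its isoform, stood at 8.27, 8.80 and 6.74 FPKM and was called lower in galactose than in either glucose medium, by -0.30 against high glucose and -0.38 against low glucose, in the authors' deposited table. The combined locus of Mipol1 and Prps1l3 was called higher by 0.26 and 0.25 from high glucose, and Prpsap1 by 0.18 from low glucose to galactose, in the authors' deposited table.

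The folate enzymes that supply or use formyl groups, which GART and ATIC consume, had larger median changes than the synthesis enzymes, a difference that was not tested. Of 8 tested loci, 6 were called higher in low glucose and 7 in galactose, with median log2 changes of 0.77 and 1.01. The galactose count includes Mthfd2l, which shares its locus with Epgn. Shmt2 and Mthfd2, of the mitochondrial folate route, went from 117 to 282 and 467 FPKM and from 51.8 to 124 and 173 FPKM per the authors' deposited table. Mthfd1l, which releases formate in mitochondria, rose at each step, from 33.0 to 58.6 and 76.6 FPKM per the authors' deposited table. Aldh1l2, which oxidises the formyl group, rose from 7.27 to 27.6 and 76.9 FPKM in that table. Mthfd1 encodes the cytosolic enzyme that makes the formyl folate that GART and ATIC consume. The change of Mthfd1 was smaller and, as for Ppat, Paics, Gart, Gmps and Umps, lay between high glucose and both other media. The authors' deposited table lists Mthfd1 at 43.2, 53.4 and 52.2 FPKM. Its log2 changes were 0.31 and 0.27 from high glucose and -0.03 (q = 0.741) from low glucose to galactose in the authors' deposited table.

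**Figure D4:**
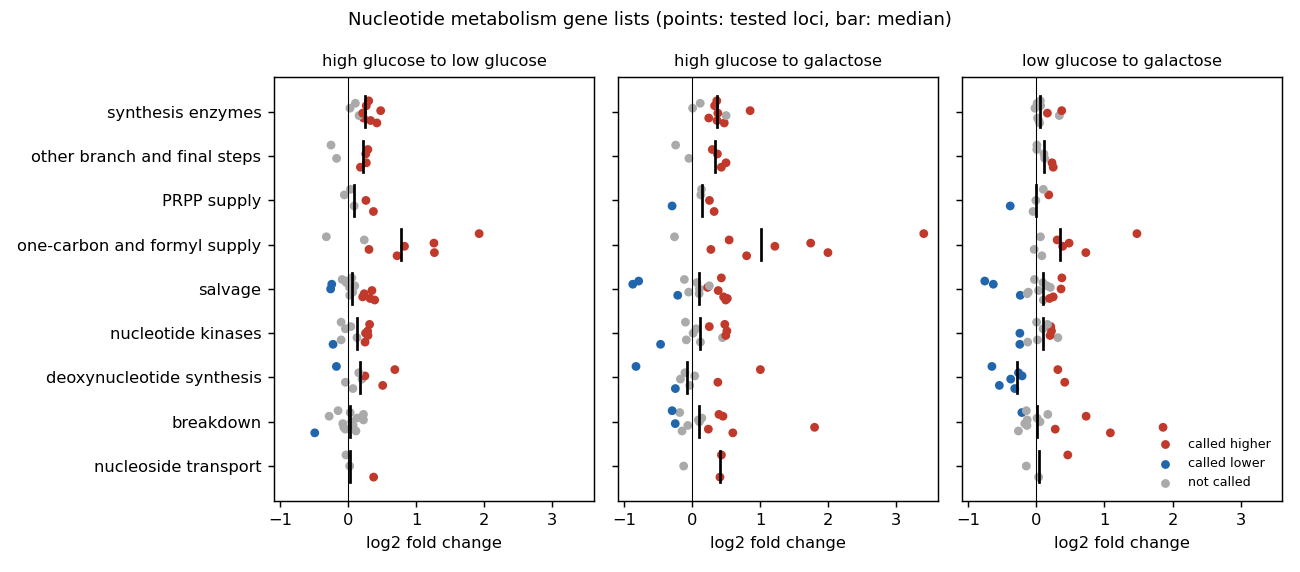
Points are tested loci of 9 gene lists of nucleotide metabolism (y axis), with the log2 fold change of the authors' deposited table on the x axis, 1 panel per comparison. Colours show calls, and black bars medians. The folate list has the highest medians, 0.77, 1.01 and 0.35, and in the last panel the deoxynucleotide list has the lowest, -0.29.

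Genes that supply or limit the precursors of DNA were mostly called lower in galactose than in low glucose. Of 8 loci, 2 were called higher and 6 lower in that comparison, with a median log2 change of -0.29. Of all tested loci, 17.4% were called higher and 16.0% lower in it, or 20.1% and 14.6% at 10 FPKM or more. Against high glucose, 3 of the 8 were called higher and 1 lower with low glucose, and 2 higher and 2 lower with galactose. Rrm2, the regulated subunit of ribonucleotide reductase, stood at 311, 442 and 303 FPKM per the authors' deposited table, highest in low glucose. It was called higher by 0.51 to low glucose and lower by -0.54 from there to galactose, both at q = 0.000239, in the authors' deposited table. Its large partner subunit Rrm1 stood at 77.2, 81.0 and 65.0 FPKM and was called lower in galactose than in either glucose medium, by -0.25 and -0.32, in the authors' deposited table. Tyms, the thymidylate synthase gene, was called only from low glucose to galactose, by -0.38 (q = 0.0407), at 55.6, 64.0 and 49.3 FPKM per the authors' deposited table. Dctd, the dCMP deaminase gene, rose at each step, from 15.7 to 25.3 and 31.4 FPKM, whereas Samhd1, which degrades deoxynucleotides, fell at each step, from 28.2 to 25.0 and 15.9 FPKM, per the authors' deposited table.

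**Figure D5:**
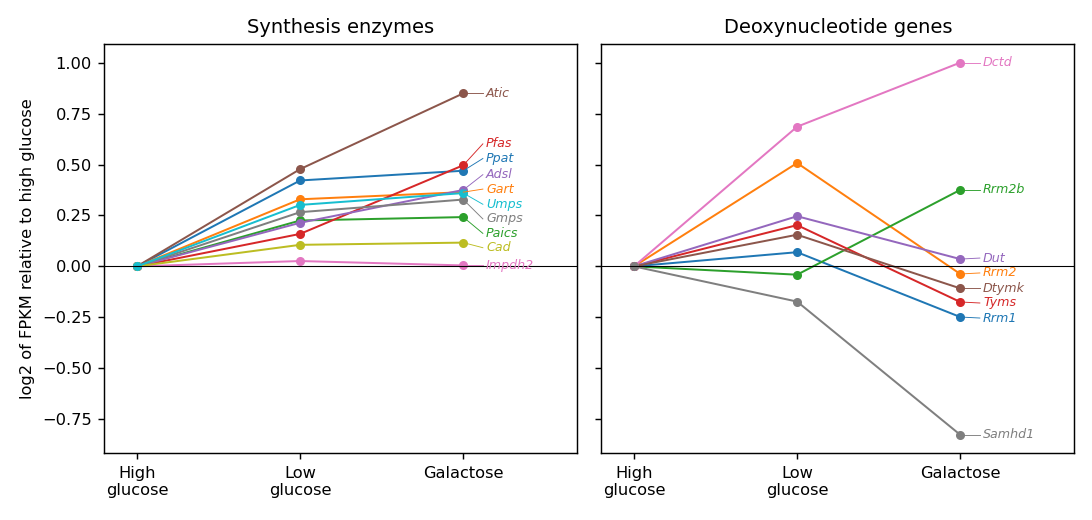
Lines join each gene's log2 level relative to its high glucose value (y axis, from the authors' deposited table) across the 3 media (x axis), for the 10 synthesis enzymes on the left and the 8 deoxynucleotide genes on the right. On the left the one fall from low glucose to galactose is that of the Impdh2 locus, by -0.02 and not called, and on the right 6 of 8 genes fall.

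Genes of salvage, which recycles bases and nucleosides, went both ways. Of 15 loci, 5 were called higher and 2 lower with low glucose, and 6 higher and 3 lower with galactose. Of tested loci at 10 FPKM or more, 25.3% and 35.4% were called higher and 14.4% and 20.9% lower, shares near these counts. Of the genes called lower, Uckl1 (low glucose) shares its locus with Znf512b, and Pnp (galactose) with Pnp2. Hprt, the purine salvage gene that also uses PRPP, stood at 51.8, 67.9 and 72.9 FPKM and Uck2, a uridine kinase gene, at 73.8, 94.0 and 96.0 FPKM per the authors' deposited table. Both were called higher in each medium against high glucose, by 0.39 and 0.49 for Hprt and 0.35 and 0.38 for Uck2, in the authors' deposited table. Of the 4 deoxynucleoside kinase genes in this list, Tk1 and Dck were called lower in galactose, and Tk2 and Dguok were called in no comparison. Tk1 stood at 83.8, 70.9 and 45.7 FPKM and Dck at 17.5, 17.2 and 10.2 FPKM per the authors' deposited table. The log2 changes of Tk1 and Dck from high glucose to galactose were -0.87 and -0.79, each at q = 0.000239, in the authors' deposited table. To low glucose, Tk1 was called lower by -0.24 (q = 0.0435) and Dck, at -0.03 (q = 0.786), was not called in that table. The log2 changes of Tk2 and Dguok from high glucose to galactose were 0.07 (q = 0.582) and -0.12 (q = 0.303) in the authors' deposited table.

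Of 11 tested nucleotide kinase loci, 5 were called higher and 1 lower with low glucose, and 4 higher and 1 lower with galactose. The galactose count includes Nme4, which shares its locus with Decr2. The combined locus of Nme1 and Nme2, the main nucleoside diphosphate kinase genes, went from 675 to 823 and 960 FPKM, Guk1, the guanylate kinase gene, from 53.8 to 65.9 and 75.7 FPKM, and Nme6 from 17.0 to 21.1 and 23.7 FPKM per the authors' deposited table. Cmpk1, the UMP and CMP kinase gene, was highest in low glucose, at 33.9, 40.5 and 34.2 FPKM, and Ak1, the muscle adenylate kinase gene, fell at each step, from 90.3 to 77.4 and 65.4 FPKM, per the authors' deposited table.

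Of 13 tested genes of nucleotide breakdown, none was called higher and 1 lower in low glucose, and 5 were called higher and 2 lower in galactose. Ampd3, an AMP deaminase gene, stood at 7.90, 7.56 and 27.5 FPKM, and was called only in galactose, by 1.80 and 1.86 against high and low glucose, in the authors' deposited table. Xdh, which makes uric acid, stood at 1.94, 1.38 and 2.94 FPKM per the authors' deposited table and was called lower in low glucose and higher in galactose. Of the 3 nucleoside transporter genes tested, Slc29a1, the main equilibrative carrier of the cell surface, stood at 191, 247 and 253 FPKM and Slc29a3, a carrier of lysosomes, at 6.11, 5.98 and 8.23 FPKM per the authors' deposited table. Slc29a1 was called higher in both media against high glucose, by 0.37 and 0.41, and Slc29a3 in galactose only, by 0.43, in the authors' deposited table.

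Among transcription factors known to act on nucleotide synthesis genes, 4 of 7 tested were called higher and 1 lower in each medium against high glucose. E2f1, 1 of the 4, shares its locus with Necab3. Of all tested loci, 18.3% were called higher in low glucose and 26.5% in galactose, or 25.3% and 35.4% at 10 FPKM or more. Myc stood at 44.2, 72.8 and 78.2 FPKM, with log2 changes of 0.72, 0.82 and, from low glucose to galactose, 0.10 (q = 0.205), in the authors' deposited table. Atf4, the factor of the amino acid response, stood at 294, 437 and 585 FPKM and was called in all 3 comparisons, by 0.57, 0.99 and 0.42, in the authors' deposited table. Mxd4, whose protein pairs with MAX and opposes MYC, fell at each step, from 18.2 to 6.69 and 3.11 FPKM, per the authors' deposited table. Whether these factors had a part in the levels of the enzymes was not tested.

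Other genes had log2 changes close to the median of the 10 enzymes. Likeness was measured as the distance between a gene and that median in the 2 log2 changes from high glucose, which rest on 3 group values only. Of 7262 candidate loci, with 1 symbol and at least 5 FPKM in each group, 142 lay within 0.05. The 5 nearest were Slc39a6, Rnf149, Cmtm4, D1Ertd622e and Fastkd2. For Slc39a6, which encodes a zinc transporter, the authors' deposited table lists 48.3, 57.3 and 62.0 FPKM, with log2 changes from high glucose of 0.25 and 0.36.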

How the data were processed

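RNA of C2C12 cells was sequenced from NEBNext Ultra polyA libraries, 4 per group. TopHat2 2.0.10 and Cufflinks 2.2.0 with Cuffdiff (version not given) and build mm10 are named in the submitters' processing notes; their settings and normalization are not given in the sources used here. The series' design text describes single muscle stem cells cultured for other times; the sample labels were followed.

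The authors deposited their Cuffdiff table, which gives pooled FPKM per group, a log2 fold change without pseudocount, a test score, a p-value and a q-value. Recomputing showed that the deposited q-value adjusts all 44006 tests with status OK together (Benjamini-Hochberg). Without values per library, no test was refitted and depth is unknown. Calls use status OK and q below 0.05. Deposited starts count from 0 and were raised by 1.

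Members and lists were chosen with earlier results of these data known. The 9 other lists hold 90 symbols, of which 89 were found, 1 of them under an older name; loci with 2 list genes count once, and 1 gene of the lists as first drawn up is not reported here. Named from them were 17 genes set by name and, per list and comparison, the 2 called genes with the largest log2 change at 1 FPKM or more. Alternatives tried were other thresholds, adjustments, scalings, a pseudocount and other locus choices. The adjustment was tested on simulated data. Promoter windows came from RefSeq (GRCm38.p6) and gene spans and exons (of the longest principal transcript) from GENCODE M21. Scripts ran in Python 3.11.15 with pandas 2.3.3.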

Additional observations from a re-analysis of the deposited data

How the results depend on the processing

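The counts of 7, 7 and 2 genes called higher were the same with single-symbol loci only and with every row of a symbol. Neither setting could change them, because the 2 loci left out were not called and the only further row, of Paics, was not tested. None was called lower under any alternative, but these settings kept the deposited direction and p-value. The only negative value was that of the Impdh2 locus from low glucose to galactose (authors' q = 0.837), so they could not give a lower call. With a log2 change of at least 0.5 required, 0, 1 and 0 remained called higher. At q below 0.01 the counts were 6, 7 and 1, the first without Paics (q = 0.0136). From low glucose to galactose the count was 1 at that threshold and 1 with adjustment within the comparison, in each case without Adsl. The median log2 changes of 0.25, 0.36 and 0.05 became 0.158, 0.190 and -0.0313 with groups rescaled to equal summed FPKM, 0.28, 0.37 and 0.0600 in single-symbol loci, and 0.24 and 0.0429 (first and last comparison) after re-centring. With a pseudocount of 1 FPKM the first and second were 0.24 and 0.35, and with all rows of a symbol summed the first was 0.24. Rescaling to equal sums turned the sign of 9 of 30 gene values, none of them called. These were the Impdh2 locus at -0.0615 in low glucose and -0.167 in galactose, the Cad locus at -0.0553 in galactose, and, from low glucose to galactose, Ppat at -0.0365, Gart at -0.0492, Paics at -0.0676, Gmps at -0.0224, Cad at -0.0734 and Umps at -0.0261. Re-centring turned the Impdh2 locus to -0.0011 from high glucose to galactose. The authors' tests were not refitted under these scalings. No paired analysis was possible because the table holds 1 pooled value per group, and no library could be left out for the same reason. The unknown depth and spread between libraries limit all comparisons.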
